A study of Mus musculus with 10 samples.

Results

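The miRNAs described here are miR-192, miR-194, miR-204 and miR-211, which are known as kidney-enriched, with the minor strands miR-204* and miR-211* of the last pair of hairpins. The asterisk is the older name for the strand of a hairpin that is usually the less abundant one. The members were the 6 probes printed as mmu-miR-192, mmu-miR-194, mmu-miR-204, mmu-miR-204*, mmu-miR-211 and mmu-miR-211*, out of 1040 probes with mouse miRNA names on the array. The cells were mIMCD-3, a mouse inner medullary collecting duct line, and their total RNA was labelled with Hy5 and hybridised to 1-colour arrays. There were 5 samples given 100 nM aldosterone and 5 given ethanol, the vehicle. Before treatment all cells had been grown to confluence on transwell filters and kept in hormone-free medium. How long the hormone was left on is not given in the sources used here. Whether samples were separate cultures is not in the labels either, so p-values measure only a spread between samples that may be technical. A lower signal in such bulk RNA could come from fewer cells that express a miRNA or from less of it per cell, which cannot be told apart. The sample titles of both groups share 5 starting codes, numbered here as replicates 1 to 5, and the labels do not say what a code stands for. No mRNA was measured, so the collecting duct identity of the line could not be checked against its own marker genes.

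A miRNA is cut from a hairpin precursor and, once loaded on an Argonaute protein, represses mRNAs that pair with its seed, the bases near its 5′ end. miR-192 and miR-194 are made from a shared primary transcript and are abundant in kidney, liver and gut. In renal cells miR-192 is known for repressing the E-cadherin repressors ZEB1 and ZEB2, and mouse work linked it to WNK1, a kinase that controls sodium and potassium handling downstream of aldosterone. miR-204 and miR-211 sit inside genes of the TRPM channel family and are best known from retinal pigment epithelium and, for miR-204, the renal tubule.

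All 6 members had a mature sequence in RefSeq (assembly GRCm38.p6), where the names carry 5p and 3p for the arms. The sequences are shown because they say which probes stand for near-identical RNAs. The seed, bases 2 to 8 from the 5′ end, is in capitals.
miR-192 (miR-192-5p): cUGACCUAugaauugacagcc
miR-194 (miR-194-5p): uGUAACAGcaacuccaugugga
miR-204 (miR-204-5p): uUCCCUUUgucauccuaugccu
miR-211 (miR-211-5p): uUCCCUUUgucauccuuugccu
miR-204* (miR-204-3p): gCUGGGAAggcaaagggacgu
miR-211* (miR-211-3p): gCAAGGACagcaaaggggggc
miR-215 (miR-215-5p), not a member: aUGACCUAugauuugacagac
The guides of miR-204 and miR-211 shared the seed UCCCUUU and differed at 1 of 22 positions, A17U (positions from 1 at the 5′ end, miR-204 base first). Probe sequences were not used here, so how far these probes can tell the guides apart is not known. miR-192 shared the seed UGACCUA with miR-215 and differed from it at 3 of 21 positions, C1A, A12U and C20A. The minor strands differed from each other at 7 of 21 positions and had different seeds.

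Mature miR-192 lies at chr19:6264857-6264877 and mature miR-194 at chr19:6264658-6264679, both on the plus strand, and the hairpin of miR-194-2 ends 115 bases before that of miR-192. The same miR-194 is also made from a second hairpin on chromosome 1, with 195 bases between it and miR-215, so the miR-194 probe cannot say which locus its signal comes from. In RefSeq the miR-194-1 and miR-215 hairpins overlap the gene Iars2, that of miR-204 overlaps Trpm3 and that of miR-211 overlaps Trpm1. No gene other than the miRNAs was listed over the miR-192 and miR-194-2 hairpins. The hairpins of miR-204 (chr19:22750605-22750672, plus strand) and miR-211 (chr7:64205806-64205911, plus strand) are given with both arms in capitals, since guide and minor strand come from the same precursor.
mir-204: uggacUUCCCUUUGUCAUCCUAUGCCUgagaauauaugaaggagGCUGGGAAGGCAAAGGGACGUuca
mir-211: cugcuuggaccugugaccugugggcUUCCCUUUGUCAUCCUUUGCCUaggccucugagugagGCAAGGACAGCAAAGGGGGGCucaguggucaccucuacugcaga
The minor strands were richer in G and C, at 61.9% for miR-204* and 66.7% for miR-211*, than the guides, at 45.5% for miR-194, miR-204 and miR-211 and 47.6% for miR-192. A run of 6 G lies in miR-211*. Runs of GGGGGG were present in 4 of 1679 RefSeq mouse mature miRNAs (0.238%).

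The first question was which of these miRNAs gave signal. Each probe was spotted 2 times, and it was called detected on an array where both spots lay above the authors' limit, 2 SD over the mean of the blank spots. The minor strands miR-211* and miR-204* and the guide miR-194 were detected on all 10 arrays. miR-192 was detected on 9, miR-204 on 7 and miR-211 on 2. Of all mouse probes 23.4% were detected on all arrays, and of 39 probes for viral miRNAs, which the cells should lack, 17.9% were, so detection of a dim probe alone does not show that its miRNA was present. Across arrays the subtracted background was 17.57 to 21.44 intensity units, the limit lay 1.292 to 2.043 units above it, and 275 to 583 mouse probes were detected. With 5 arrays per group, the number of arrays limits precision throughout.

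miR-211*, the minor strand of the Trpm1 hairpin, was the member farthest above its detection limit. Before normalization it had 84.9, 58.5, 211, 94.2 and 60.5 units above the blank mean with aldosterone, in the order of replicates 1 to 5, and 85.2, 46.5, 120, 64.7 and 56.4 with vehicle. Both spots were far above the limit on every array and differed little, with a median CV of 7.2%. Its partner guide miR-211 had 1.58, 0.536, 2.7, 2.12 and 0.86 units with aldosterone and 2.25, 1.12, 1.62, 1.27 and 1.36 with vehicle. These values lie around the limit itself. Both spots passed on aldosterone replicates 3 and 4 and on no vehicle array, and neither spot passed on aldosterone replicates 2 and 5 and vehicle replicate 2.

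For the Trpm3 hairpin both strands gave signal, the minor strand on more arrays. miR-204* had 15.4, 6.08, 12.9, 7.77 and 4.9 units above the blank mean with aldosterone and 14.2, 3.19, 6.41, 4.37 and 5.84 with vehicle. miR-204 had 3.14, 2.21, 13.9, 3.35 and 3.11 with aldosterone and 2.5, 2.19, 11.9, 2.33 and 3.05 with vehicle. The miR-204 guide therefore stood well clear of the limit on the 2 arrays of replicate 3 and little above it on the other 8. The RNA levels of guide and minor strand are not set against each other, since probes differ in how well they hybridise.

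miR-192 and miR-194 gave low signal. miR-192 had 6.02, 2.95, 10.7, 5.69 and 3.91 units above the blank mean with aldosterone and 6.82, 2.89, 8.05, 3.13 and 3.72 with vehicle, and its only missed call was vehicle replicate 2, where 1 spot fell short. miR-194 had 8.63, 5.28, 16.6, 6.62 and 6.59 with aldosterone and 6.44, 5.37, 12.3, 2.5 and 4.67 with vehicle. Both were highest on the arrays of replicate 3, which had the most detected probes in each group, 583 with aldosterone and 494 with vehicle. With a limit of 5 SD over the blank mean only miR-211* kept its call on all 10 arrays, while miR-194 and miR-204* were called on 7, miR-192 on 5, miR-204 on 2 and miR-211 on 0. With that limit 3 viral probes were still called on all arrays.

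**Figure D1:**
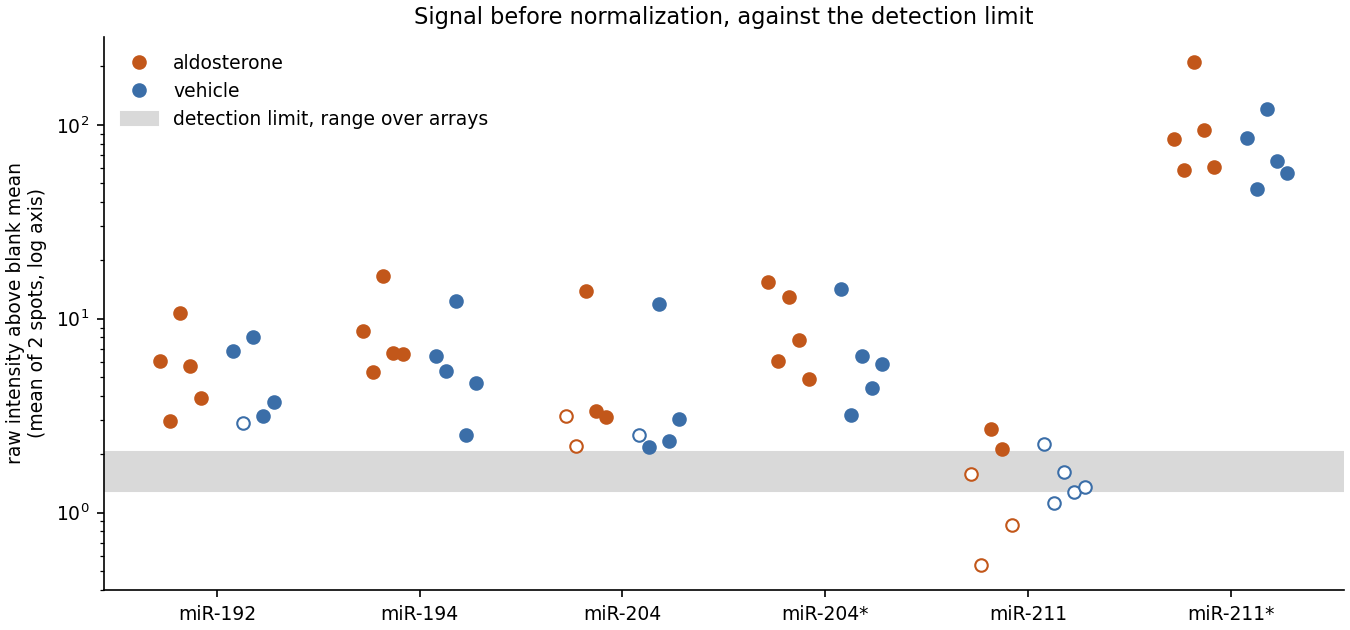
Raw intensity above the blank mean (mean of 2 spots, intensity units, log axis) for the 6 probes, with 1 point per array, aldosterone left of vehicle and replicates 1 to 5 from left to right. Filled points are arrays where both spots passed, and the grey band is the range of the authors' limit over arrays, 1.292 to 2.043 units. miR-211 lies in and around the band, and miR-211* lies between 46.5 and 211 units, above it on every array.

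Strand partners and seed kin of the miR-192 and miR-194 pair gave almost no signal. The 5 such probes on the array were miR-192*, miR-194-1*, miR-194-2*, miR-215 and miR-215*, and 0 of them were detected on all arrays. miR-192*, miR-215 and miR-215* were detected on none, miR-194-1* on 2 and miR-194-2* on 1, so the minor strands did not say which miR-194 hairpin was in use. miR-215, which has the miR-192 seed and is its paralog in the second cluster, had a normalized intensity of 2.92 ± 0.515 with aldosterone and 2.11 ± 0.548 with vehicle (SD, n = 5). The 356 mouse probes detected on no array, each averaged over the 10 arrays, had a median of 2.97 on the same scale. Their 5th to 95th percentiles were 2.46 to 3.62.

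Of 12 probes on the array for other kidney-enriched miRNAs, 5 passed on every array and 5 on no array. Those on all arrays were miR-10a, miR-10a*, miR-10b, miR-196a and miR-196b, which lie in Hox gene clusters, and those on none include miR-216a and miR-217. Markers of other cell types (liver, muscle, blood, endothelium, fibroblast, neuron, islet and retina) had 26 probes, of which 12 were detected on no array, 10 on some and 4 on all. The liver marker miR-122, of the tissue where miR-192 and miR-194 are also abundant, was detected on 1 array. Endothelial miR-126-3p was detected on 9 arrays and miR-126-5p on 2. Neuronal miR-9 was detected on 8 arrays, miR-9* on 1 and miR-124 on none. The 4 on all arrays were miR-206, a muscle marker, and miR-182, miR-183 and miR-96. Each of the other 4 muscle probes was detected on no array. miR-182, miR-183 and miR-96 are a cluster known from retina and sensory cells, chosen because miR-204 and miR-211 are also retinal. The summed normalized intensity of this retina list was 184 to 204 with aldosterone and 146 to 248 with vehicle, and its part in the miR-204 and miR-211* signals was not tested.

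The second question was whether aldosterone changed these miRNAs. None of the 5 members tested passed the threshold, and neither did any of the 430 mouse probes detected on at least 5 arrays (0%; limma, Benjamini-Hochberg adjusted p under 0.05, smallest adjusted p = 0.9445). Without adjustment 8 of the 430 probes (1.86%) and 0 members had a p under 0.05. The 2 groups overlapped for all 6 members, as they did for all 430 tested probes. Among the members 2 lay on the higher and 3 on the lower side with aldosterone, with a median log2 change of -0.015, against a median of 0.003 over all tested probes. Values below are normalized intensities above background, after normexp with an offset of 50 and quantile normalization, and log2 changes are on the log2(intensity + 50) scale, which understates changes of dim probes. miR-211, detected on 2 arrays, was left out of this test.

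**Figure D2:**
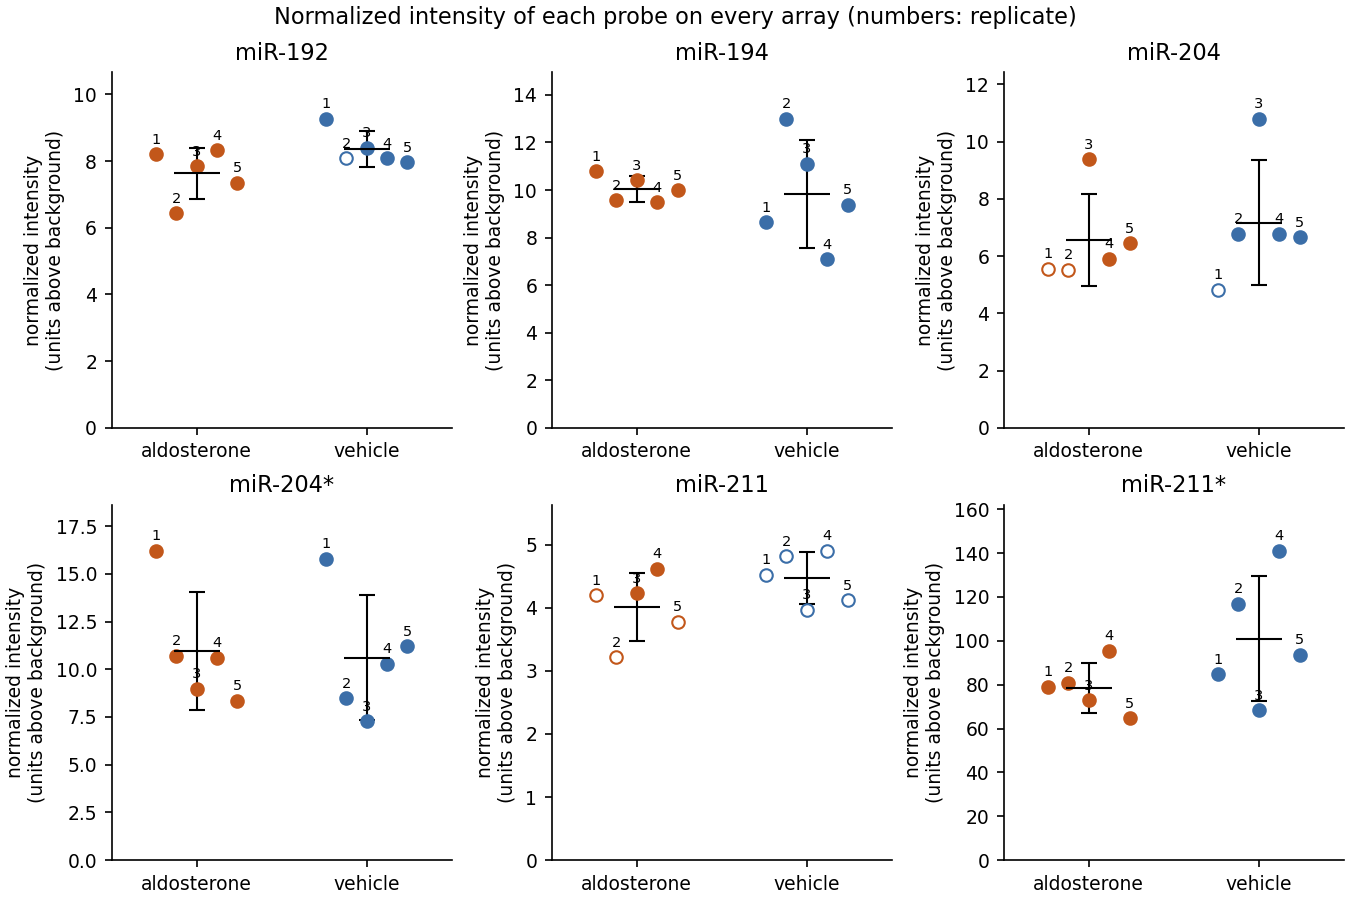
Normalized intensity (units above background) of each probe on every array, aldosterone left and vehicle right, with the replicate number beside each point, open points where the probe was not detected, and the group mean with its SD (n = 5). The groups overlap in every panel, and replicate 3 is highest in both groups for miR-204 and replicate 1 in both groups for miR-204*.

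miR-192, reported as a regulator of WNK1 in mouse kidney, was at 8.21, 6.43, 7.84, 8.33 and 7.35 with aldosterone (replicates 1 to 5) and at 9.27, 8.09, 8.4, 8.09 and 7.96 with vehicle. The mean was 7.63 ± 0.773 with aldosterone and 8.36 ± 0.532 with vehicle (SD, n = 5), a log2 change of -0.018 (SE 0.013, 95% interval -0.047 to 0.011, limma adjusted p = 0.9445). It was lower with aldosterone in 4 of 5 same-numbered pairs, a count that 16.5% of all tested probes reached on the lower side. The difference did not exceed the spread between arrays, and its sign turned when arrays were not normalized to each other (0.019) and in the authors' deposited values (0.033), where 96% and 85.6% of all tested probes were on the higher side.

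miR-194, which shares the transcript of miR-192, was at 10.8, 9.57, 10.4, 9.49 and 10 with aldosterone and at 8.64, 13, 11.1, 7.09 and 9.38 with vehicle. The vehicle arrays spanned the whole range, and the aldosterone arrays lay inside it. The mean was 10.1 ± 0.562 with aldosterone and 9.85 ± 2.29 with vehicle (SD, n = 5), a log2 change of 0.006 (SE 0.025, 95% interval -0.051 to 0.062, limma adjusted p = 0.9527). Its sign turned without vehicle replicate 1 (-0.001), without vehicle replicate 4 (-0.011), and with 75th percentile scaling over detected probes (-0.043), where only 13.7% of all tested probes were on the higher side. On vehicle replicates 1, 2 and 4 its duplicate spots differed by a CV of 45.3%, 50% and 45.2%.

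The miR-204 guide was at 5.56, 5.53, 9.38, 5.91 and 6.44 with aldosterone and at 4.83, 6.78, 10.8, 6.78 and 6.66 with vehicle. Replicate 3 was the highest array of each group. The mean was 6.56 ± 1.62 with aldosterone and 7.17 ± 2.2 with vehicle (SD, n = 5), a log2 change of -0.015 (SE 0.030, 95% interval -0.082 to 0.052, limma adjusted p = 0.9527). The value was -0.033 without aldosterone replicate 3 and 0.007 without vehicle replicate 3, and it was 0.014 without normalization between arrays and 0.286 in the authors' deposited values.

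miR-204* was at 16.2, 10.7, 8.99, 10.6 and 8.36 with aldosterone and at 15.8, 8.48, 7.29, 10.3 and 11.2 with vehicle. Replicate 1 was the highest array of each group. The mean was 11 ± 3.08 with aldosterone and 10.6 ± 3.29 with vehicle (SD, n = 5), a log2 change of 0.008 (SE 0.045, 95% interval -0.092 to 0.109, limma adjusted p = 0.9593). Its sign turned without aldosterone replicate 1 (-0.021), without vehicle replicate 2 (-0.004) or 3 (-0.012), and with 75th percentile scaling over detected probes (-0.043). It was 0.039 without vehicle replicate 1. It was higher with aldosterone in 4 of 5 pairs, a count that 19.8% of all tested probes reached on the higher side.

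On the quantile-normalized values miR-211* had the largest difference of the 5 members, but in the authors' deposited values those of miR-194 (log2 change 0.441), miR-204* (0.421) and miR-204 (0.286) exceeded it (0.248). It was at 79, 80.9, 72.9, 95.5 and 64.6 with aldosterone and at 84.8, 117, 68.3, 141 and 93.7 with vehicle. Vehicle replicates 2 and 4 lay above every aldosterone array, and vehicle replicate 3 lay below all but 1 of them. The mean was 78.6 ± 11.4 with aldosterone and 101 ± 28.5 with vehicle (SD, n = 5), a ratio of 0.778 and a log2 change of -0.216 (SE 0.125, 95% interval -0.497 to 0.066, limma adjusted p = 0.9445). It was lower in 4 of 5 pairs, and with the replicate number as a block its SE was 0.077 and its unadjusted limma p 0.0356, a level that 4.42% of all tested probes reached in that fit, while its adjusted p was 0.7438. Without vehicle replicate 4 the log2 change was -0.125.

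The direction of the miR-211* difference depended on how arrays were put on a common scale. It was lower with aldosterone with quantile normalization, cyclic loess (-0.143) and 75th percentile scaling over detected probes (-0.162). It was higher without normalization (0.227), with 75th percentile scaling over all probes (0.055), with scaling to the spike controls (0.105) and in the authors' deposited values (0.248). Before normalization it was higher with aldosterone in 4 of 5 pairs, as were miR-192, miR-194 and miR-204*, and miR-204 was in 5. The share of all tested probes with such pair counts before normalization was not computed, so these counts have no background. By log2 change 96%, 64%, 75.3% and 85.6% of all tested probes were higher in the settings where miR-211* was higher, in that order. The share was 53% with quantile normalization, 50.2% with cyclic loess and 13.7% with scaling over detected probes. No setting brought miR-211* past the threshold.

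**Figure D3:**
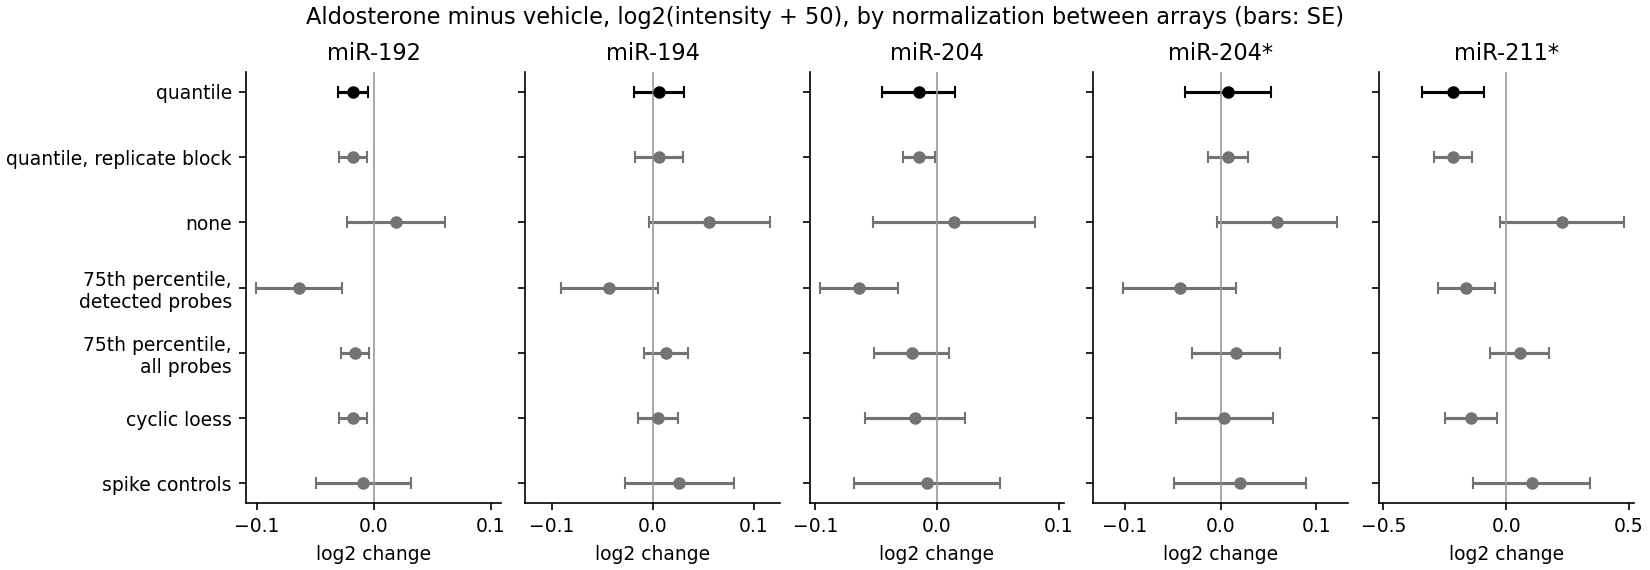
Log2 change, aldosterone minus vehicle, on the log2(intensity + 50) scale for the 5 tested members (x axis, own range for each panel), with rows for quantile normalization with and without the replicate block, no normalization, the 2 ways of 75th percentile scaling, cyclic loess and spike controls; bars are the SE. The miR-211* value lies at -0.216 with quantile normalization and at 0.227 without normalization, while the points of the other 4 members stay between -0.1 and 0.1 in the 7 rows drawn, which leave out the deposited values and the other background corrections.

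miR-211 was at 4.2, 3.22, 4.23, 4.62 and 3.78 with aldosterone and at 4.52, 4.82, 3.97, 4.9 and 4.12 with vehicle. The mean was 4.01 ± 0.531 with aldosterone and 4.47 ± 0.413 with vehicle (SD, n = 5). Its lowest array, aldosterone replicate 2, lay inside 2.46 to 3.62, the 5th to 95th percentiles of never detected probes, and its other arrays lay a little above. Those percentiles are of means over the 10 arrays, so they do not place a single array among the undetected probes of that array. In a fit over all 1040 mouse probes its log2 change was -0.012 (SE 0.009, limma adjusted p = 0.9583).

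None of the other tested probes around these miRNAs passed the threshold. Of 6 tested probes for other kidney-enriched miRNAs, 3 lay on the higher and 3 on the lower side, with a median log2 change of -0.003. The smallest unadjusted p among them was that of miR-196b, whose mean was 24.6 ± 3.37 with aldosterone, against 21.6 ± 8.14 with vehicle (SD, n = 5; log2 change 0.065, SE 0.074, limma adjusted p = 0.9445). It was followed by miR-196a, at 19.1 ± 3.42 with aldosterone and 17.6 ± 7.05 with vehicle (0.036, SE 0.071). Of 6 listed ZEB1 and ZEB2 repressors other than miR-192, 3 were tested, and these 3 lay on the higher side, where 53% of all tested probes did. The untested ones were miR-200c, detected on 2 arrays, and miR-141 and miR-205, detected on 1 each. miR-192 itself lay on the lower side (-0.018). With aldosterone miR-200a was at 106 ± 33.6, against 82 ± 38.8 with vehicle, a log2 change of 0.258 (SE 0.196). For miR-429 the means were 36.8 ± 16.4 with aldosterone and 31.3 ± 19.4 with vehicle, a log2 change of 0.107 (SE 0.173).

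The third question was whether the members differed between the replicate codes that both groups share. A moderated F test over the 5 codes, with treatment in the model, called 0 of the 5 members and 10 of the 430 probes (2.33%; limma, adjusted p under 0.05, smallest adjusted p = 0.005569). Without adjustment 84 probes (19.5%) had a p under 0.05, among them miR-204 and miR-204*. The limma adjusted p was 0.15 for miR-204 and 0.172 for miR-204*. For miR-211* the adjusted p was 0.2517, and for miR-192 and miR-194 it was 0.6577. The 2 arrays of a code may share more than a culture, since the labels do not say what the code is, and code and anything that goes with it cannot be told apart.

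miR-204 was high in replicate 3, at 9.38 with aldosterone and 10.8 with vehicle, while none of the other 8 arrays exceeded 6.78. The mean of the 2 arrays was 10.1 and that of the others 6.06 ± 0.718 (SD, n = 8), a ratio of 1.67. In the authors' deposited values, which are scaled to a median of 25 per array, the 2 arrays had 60.1 and 63.4 and the others 14.6 to 31.3. Both arrays of replicate 3 also lay above the other 8 in those values for miR-192 and miR-194, so there the pattern was not particular to miR-204. miR-211, whose guide differs from miR-204 at A17U only, was at 4.23 with aldosterone and 3.97 with vehicle in replicate 3. Both values lay inside its range of 3.22 to 4.9 over the other arrays. Before normalization aldosterone replicate 3 was its highest array, at 2.7 units above the blank mean. Since miR-211 was detected on only 2 arrays, these values cannot show whether it was raised in replicate 3. The arrays of replicate 3 were also the brightest of their groups, with a median log2 signal before normalization of 6.741 with aldosterone and 6.411 with vehicle, and the part of brightness in the miR-204 level was not tested.

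miR-204* followed another code. It was high in replicate 1, at 16.2 with aldosterone and 15.8 with vehicle, while none of the other 8 arrays exceeded 11.2. The mean of the 2 arrays was 16 and that of the others 9.51 ± 1.41 (SD, n = 8), a ratio of 1.68. In the deposited values the 2 arrays had 101 and 81.2 and the others 21.2 to 55.6. On the quantile-normalized values its code means were lowest in replicate 3, at 8.14, the code in which the guide of the same hairpin was highest. Those of the guide were lowest in replicate 1, at 5.19. The deposited values did not order the low codes this way. There miR-204* was at 55.5 with aldosterone and 34.2 with vehicle in replicate 3, and at 48.1 and 21.2 in replicate 2. The guide was at 31.3 and 17.4 in replicate 1, and at 24.9 and 14.6 in replicate 2. A code whose 2 arrays both lay above the other 8 was found for 102 of the 430 tested probes (23.7%), so such a pattern was common on these arrays.

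The calls between codes depended on the normalization. miR-204 passed the threshold in the limma F test without normalization (adjusted p = 0.006333), with 75th percentile scaling over all probes (0.032), cyclic loess (0.02817), spike control scaling (0.02546) and in the deposited values (0.004434). miR-204* passed without normalization (0.0196), with 75th percentile scaling over all probes (0.03326), cyclic loess (0.03588) and in the deposited values (0.03705). Of the 430 tested probes 222 passed without normalization and 95 with 75th percentile scaling over all probes. Cyclic loess called 49 of the 430 and spike control scaling 140. In the deposited values 111 of 422 passed. With spike control scaling miR-204* did not pass (0.05924). Neither strand passed with 75th percentile scaling over detected probes (0.3727 for miR-204 and 0.06361 for miR-204*). The same held for a normexp offset of 10 (0.127 and 0.1347) and for blank subtraction (0.1552 and 0.2552). Without replicate 3 the adjusted p of miR-204 was 0.8038, and without replicate 1 that of miR-204* was 0.7374, both with quantile normalization.

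**Figure D4:**
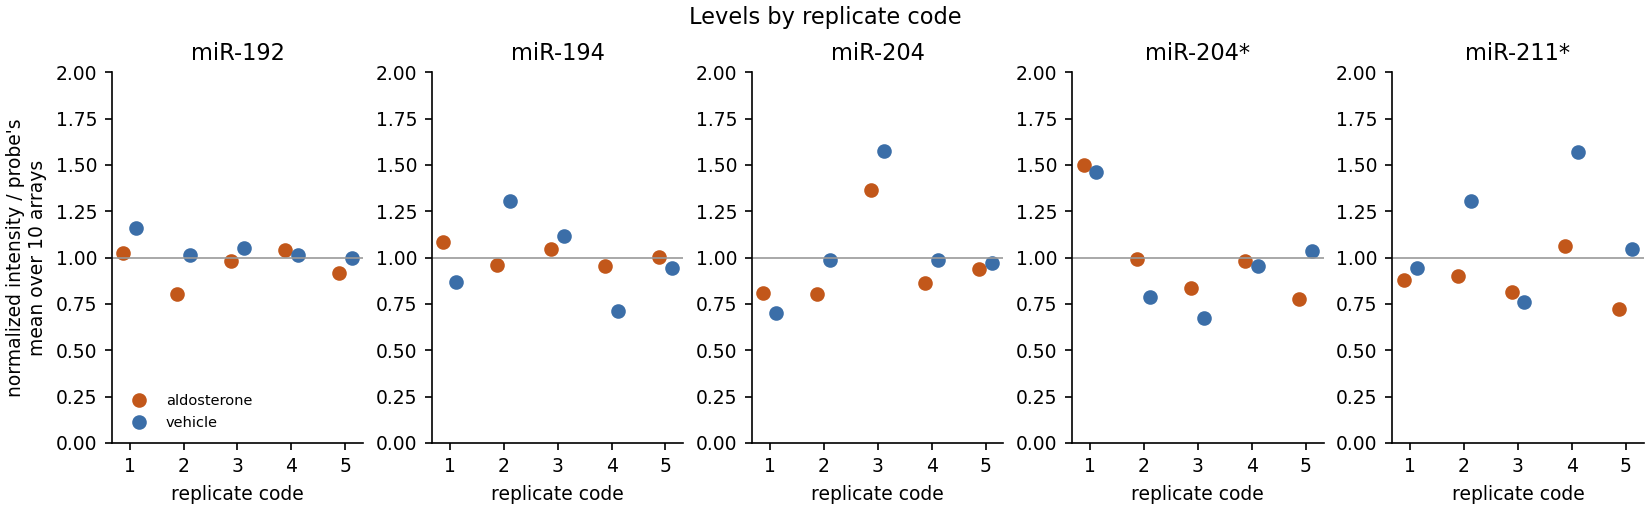
Normalized intensity divided by the probe's mean over the 10 arrays (y axis, no unit) against the replicate code (x axis) for the 5 tested members, aldosterone left of vehicle within each code. Both points of code 3 are highest for miR-204 and both points of code 1 for miR-204*, while miR-192 spans the narrowest range.

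On the quantile-normalized values the remaining members had no code that stood apart. The code means of miR-192 lay between 7.26 in replicate 2 and 8.74 in replicate 1, and those of miR-194 between 8.29 in replicate 4 and 11.3 in replicate 2. Neighbouring codes overlapped for both. In the deposited values replicate 3 did stand apart for these probes. There miR-192 was at 46 with aldosterone and 42.9 with vehicle, against at most 40.7 on the other arrays. For miR-194 the values were 71.5 and 65.4, against at most 56.3. With quantile normalization miR-211* had code means of 70.6 in replicate 3 to 118 in replicate 4. In replicates 2, 4 and 5 its vehicle array was then the higher one, with log2 differences (aldosterone minus vehicle) of -0.349, -0.394 and -0.327. In replicates 1 and 3 the difference was -0.063 and 0.056. Before normalization replicate 3 was instead its highest code, at 211 and 120 units above the blank mean, against at most 94.2 on the other arrays. The deposited values of miR-211* were also highest in replicate 3 within each group, at 909 with aldosterone and 641 with vehicle.

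After the group means were taken off, the quantile-normalized log2 values were correlated over the 10 arrays, which share codes and scaling. For miR-192 with miR-194, which share a transcript, r was -0.02, and for miR-204 with miR-204*, which share a hairpin, it was -0.7. The highest r between 2 members was 0.49, for miR-192 with miR-204*. With so few arrays and such low signals these values are a description only.

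Probes with the most similar pattern lay outside the group. For miR-204 they were miR-503, a relative of the cell cycle miRNAs miR-15 and miR-16, at r = 0.9, and the epithelial miR-200a at r = 0.89, both highest in replicate 3 (miR-503 at 12.5 with aldosterone and 13.6 with vehicle, miR-200a at 161 in the aldosterone array and 151 in the vehicle array). For miR-204* they were miR-92b (r = 0.92) and miR-1892 (r = 0.87), and for miR-211* miR-2861 (r = 0.96) and miR-346* (r = 0.95). For miR-194 they were the minor strands miR-140* (r = 0.9) and miR-17* (r = 0.87), and for miR-192 the minor strand miR-3067* (r = 0.86) and miR-25 (r = 0.74). Each r is over 10 arrays, picked as the highest among 430 probes.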

How the data were processed

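The array files give a raw intensity per spot. According to the column notes the authors deposited, the blank mean was subtracted, spots above it by more than 2 SD were kept, duplicates were averaged and each array was scaled to a median intensity of 25. The deposited series table held those scaled intensity values (6454 compared, largest difference 0) and was an alternative. The raw intensities were corrected with normexp (offset 50), taken to log2, averaged over duplicate spots and quantile-normalized (R 4.3.3, limma 3.58.1), leaving out 4 spots with a quality flag. Mouse probes detected on at least 5 arrays, 430 of 1040, were tested with lmFit and eBayes without a block, and replicate codes by a moderated F test. Fits were run on simulated independent noise with planted changes several times the residual SD. That check cannot say how well differences as small as those of the members are found. Deviations of same-numbered arrays from their group means correlated at r of 0.2 to 0.81, and 9 of 10 arrays correlated best with their own number. The shared title codes were therefore taken as pairs in the pair counts, but the main fit was unpaired and the replicate block was an alternative. Intervals and p-values of the main fit thus include the spread between codes. With the block the SE was 0.013 for miR-204 and 0.021 for miR-204*, with limma adjusted p of 0.7445 and 0.9061. No array repeated another, since log2 differences within a group had an SD of 0.149 to 0.682, against 0.0755 from duplicate-spot noise. Sequences, hairpins and gene overlaps come from RefSeq, where all 6 members matched by name. Named besides the members were the 2 probes most like each tested one, strand partners and seed kin, and the 2 smallest unadjusted p values of the kidney and ZEB lists. The remaining names, including miR-10a and miR-200b in the closing section, were chosen after their values were seen. The rule that both arrays of a code exceed the other 8 was also set after seeing values. Members and lists were chosen with earlier results of these data known.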

Additional observations from a re-analysis of the deposited data

Results flagged for a closer look

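The miR-204 level of aldosterone replicate 3 stood apart from the other arrays of its group. On the log2(intensity + 50) scale its gap to the next array was 0.755 of the range of the group, above the critical value of 0.71 for 5 samples. The array was at 9.38 and the other aldosterone arrays at 5.53 to 6.44. The vehicle array of the same code was also the highest of its group, at 10.8. It was 1 of 12 member groups examined, and chance marks about 1 group in 20.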

How the results depend on the processing

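Under every alternative run, 0 members and 0 probes passed the threshold for aldosterone against vehicle (limma; smallest adjusted p 0.5726, in the deposited values). The replicate block changed no call, with a smallest adjusted p of 0.7438 and an unchanged log2 change of -0.216 for miR-211*. The direction of small differences did depend on the scaling. Without normalization between arrays the log2 change turned to 0.019 for miR-192, 0.014 for miR-204 and 0.227 for miR-211*. With 75th percentile scaling over detected probes it turned to -0.043 for miR-194 and -0.043 for miR-204*. For miR-211* it turned to 0.055 with 75th percentile scaling over all probes and to 0.105 with spike control scaling. In the deposited values it turned to 0.033 for miR-192, 0.286 for miR-204 and 0.248 for miR-211*, and it was 0.441 for miR-194 and 0.421 for miR-204*, where the median over all tested probes was 0.311. After blank subtraction it was -0.21 for miR-192, 0.124 for miR-194, -0.287 for miR-204, 0.11 for miR-204* and -0.341 for miR-211*. Neither of these settings adds the offset of 50. The median log2 change of the tested members, -0.015 with quantile normalization, was 0.056 without normalization, -0.064 and 0.013 with 75th percentile scaling over detected and over all probes, 0.02 with spike controls, -0.052 with an offset of 10, -0.21 after blank subtraction and 0.286 in the deposited values. Leaving out arrays or pairs gave log2 changes of -0.024 to -0.011 for miR-192, -0.011 to 0.028 for miR-194, -0.033 to 0.007 for miR-204, -0.021 to 0.039 for miR-204*, -0.298 to -0.125 for miR-211* and -0.021 to -0.009 for the median.

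Between replicate codes, 0 members and 10 probes passed with quantile normalization. Without normalization 5 members and 222 probes passed, with limma adjusted p of 0.03981 for miR-192, 0.01556 for miR-194, 0.006333 for miR-204, 0.0196 for miR-204* and 0.01521 for miR-211*. With 75th percentile scaling over all probes 2 members (miR-204 at 0.032, miR-204* at 0.03326) and 95 probes passed, and over detected probes 0 members and 18 probes. Cyclic loess gave 3 members (miR-204 at 0.02817, miR-204* at 0.03588, miR-211* at 0.02843) and 49 probes. Spike control scaling gave 3 members (miR-194 at 0.02816, miR-204 at 0.02546, miR-211* at 0.0492) and 140 probes. The deposited values gave 2 members (miR-204 at 0.004434, miR-204* at 0.03705) and 111 probes. Blank subtraction gave 0 members and 2 probes, and leaving out a pair 0 members and 3 probes (without replicate 3) to 23 (without replicate 2). The cause of these differences was not tested. The number of members detected on all arrays, 3 with both spots required, was 5 with 1 spot and 1 with a limit of 5 SD, and 3 to 4 when a pair was left out. Low signal over background limits miR-192, miR-194, miR-204, miR-204* and miR-211, whose intensities all lie below the offset of 50.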

Other observations

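Among the listed kidney-enriched and ZEB-repressing miRNAs that are not members, miR-10a and miR-200b passed the threshold between replicate codes with quantile normalization (limma F test, adjusted p = 0.03781 for each, where 2.33% of tested probes passed). miR-200b was at 148 with aldosterone and 148 with vehicle in replicate 3, and at 53.8 to 120 on the other arrays. miR-10a was at 379 with aldosterone and 408 with vehicle in replicate 3, and at 237 to 322 on the other arrays. Like miR-204, both were highest in that code in both groups.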
